A study of Mus musculus with 11 samples.

Results

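Glutamate receptors and the auxiliary subunits that travel with them were followed as a group of 34 genes among the 39179 of a mouse count table. Members were taken by symbol: 4 AMPA, 5 kainate and 7 NMDA receptor subunit genes, the delta receptor gene Grid1, 6 metabotropic receptor genes, 9 genes of AMPA receptor auxiliary subunits and 2 of kainate receptor auxiliary subunits. The libraries held RNA of GFP-positive cells sorted from the V-SVZ (ventricular-subventricular zone, a germinal layer beside the lateral ventricles) of CD1/Swiss mice at postnatal day 2. The 6 control libraries carried Gsh2-Cre, a floxed and a wild-type allele of the transcription factor gene Zeb2 and the GFP reporter RCE (Zeb2fl/wt), and the 5 mutant libraries carried Gsh2-Cre, a floxed and a null allele and RCE (Zeb2fl/ko). Cre under the Gsh2 promoter is active in progenitors of the ventral forebrain, and GFP marks these cells and their progeny. Both groups carry Cre and a floxed allele, so the comparison sets cells expected to keep a wild-type copy against cells expected to keep none, and the null allele is present in all cells of the mutant animals. The labels do not say whether a library is an animal or a pool, so p-values cover only the spread from library to library, which may be technical.

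Glutamate opens ionotropic receptors, which are tetramers of AMPA, kainate or NMDA subunits, and it activates metabotropic receptors that signal through G proteins. Auxiliary subunits such as the transmembrane AMPA receptor regulatory proteins (TARPs) and the Neto proteins set the trafficking and gating of these channels. In the postnatal V-SVZ and among migrating interneurons, receptors of all these classes are known to be present before synapses form, and they take part in proliferation, migration and survival.

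Depth was 6833981 to 13073505 counts per library. The gene-level count of Zeb2 was 239 ± 48.9 CPM (counts scaled to the library total; SD, n = 6) in controls and 302 ± 71.54 (SD, n = 5) in mutants (log2 fold change 0.35 with an SE of 0.165, adjusted p = 0.294). It includes exons outside the deleted part and so does not check the genotype, and the directions given here rest on the labels. Controls 4 and 5 and all 5 mutant libraries had no counts of 4 Y-linked genes, whereas controls 1, 2, 3 and 6 had 763 to 2716, so genotype and sex, as these genes show it, cannot be told apart for 4 of the 6 controls. Of marker lists for other cells, the summed level of 7 microglial genes was 0.501 to 9.72 CPM in controls and 2.14 to 8.93 CPM in mutants. The sum of 8 excitatory neuron genes was 8.18 to 64.2 and 22.6 to 92.9 CPM, so the ranges overlapped. All 7 tested genes of this list had a positive log2 fold change, with a median of 1.02. By edgeR and by DESeq2 0 of the 7 passed after adjustment. The gene not tested was Slc17a7, a vesicular glutamate transporter gene that defines cortical excitatory neurons. It had at most 0.439 CPM in any library. Mutant 5 stood apart in the choroid plexus and ependymal list, at 201 CPM against at most 9.92 CPM elsewhere, and control 6 in the oligodendrocyte precursor list, at 2423 CPM against 608 to 1363 CPM elsewhere. Young neuron markers, which cells leaving the V-SVZ carry, summed to 8939.9 to 10700.4 CPM over 15 genes in controls and 9455 to 10465 CPM in mutants, and 8 markers of olfactory bulb interneurons to 954 to 1472 and 1236 to 1705 CPM. Their sums overlapped, but single genes moved: 3 of the 15 (Rbfox3, Gad2 and Syt1) and 3 of the 8 (Pax6, Prokr2 and Neurod1) rose, against 4.42% of all genes called in either direction. By DESeq2, with 8.02% of all genes called, 6 of the 15 rose and 0 fell. The log2 fold change was negative for 6 of the 15 and for the other 5 of the 8, down to -1.84 among the latter. Of these 5, 0 passed by edgeR over all 11 libraries and 1 was lower by DESeq2, which called 8.02% of all genes. Among the libraries without Y-linked counts edgeR called 1 of the 8 higher and 1 lower, with 1.46% of all genes called. Without control 6 and mutant 5 it called 3 of the 8 higher and 2 lower, with 4.44% of all genes called.

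Of the 34 members, 30 passed the filter on low counts and were tested with edgeR's quasi-likelihood test, adjusted over the 14104 genes kept. Between genotypes 8 members were higher in the mutants, 2 were lower and 20 did not pass an adjusted p of 0.05. Over all genes tested, 4.42% were called, 2.68% higher and 1.74% lower. The members had a median log2 fold change of 0.17 and a median absolute log2 fold change of 0.66, and all tested genes had -0.02 and 0.24. Members were chosen with earlier results of these data known, so these comparisons with all genes are descriptions only. All mutant libraries lay outside the range of the controls for 6 of the 30, in library-total CPM, and this held for 4.99% of all genes tested (2.67% higher, 2.32% lower). These 6 were Gria1, Gria4, Grik1, Grm2 and Cacng5, higher, and Grik3, lower. Among the 7 libraries without Y-linked counts (2 controls, 5 mutants), 3 of 32 members tested were higher (Grik1, Cacng5 and Grm2) and 0 lower by the same edgeR test. There 1.46% of all genes were called at the adjusted threshold. At an unadjusted p under 0.05 the members had 9 higher and 5 lower. With the Y-linked level as a covariate in edgeR, Grik1, Cacng5 and Grin3a were higher and 0 members lower, against 1.32% of all genes called. At the unadjusted threshold 8 members were higher and 4 lower in that fit. Shares of all genes at an unadjusted p are not given, so the unadjusted counts here and below have no background beside them. Log2 fold changes in the 7 libraries without Y-linked counts were 1.06 (adjusted p = 0.141) for Gria1, 1.45 (adjusted p = 0.0613) for Gria4, 1.397 (adjusted p = 0.0626) for Grik4 and 1.63 (adjusted p = 0.106) for Cacng2.

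**Figure D1:**
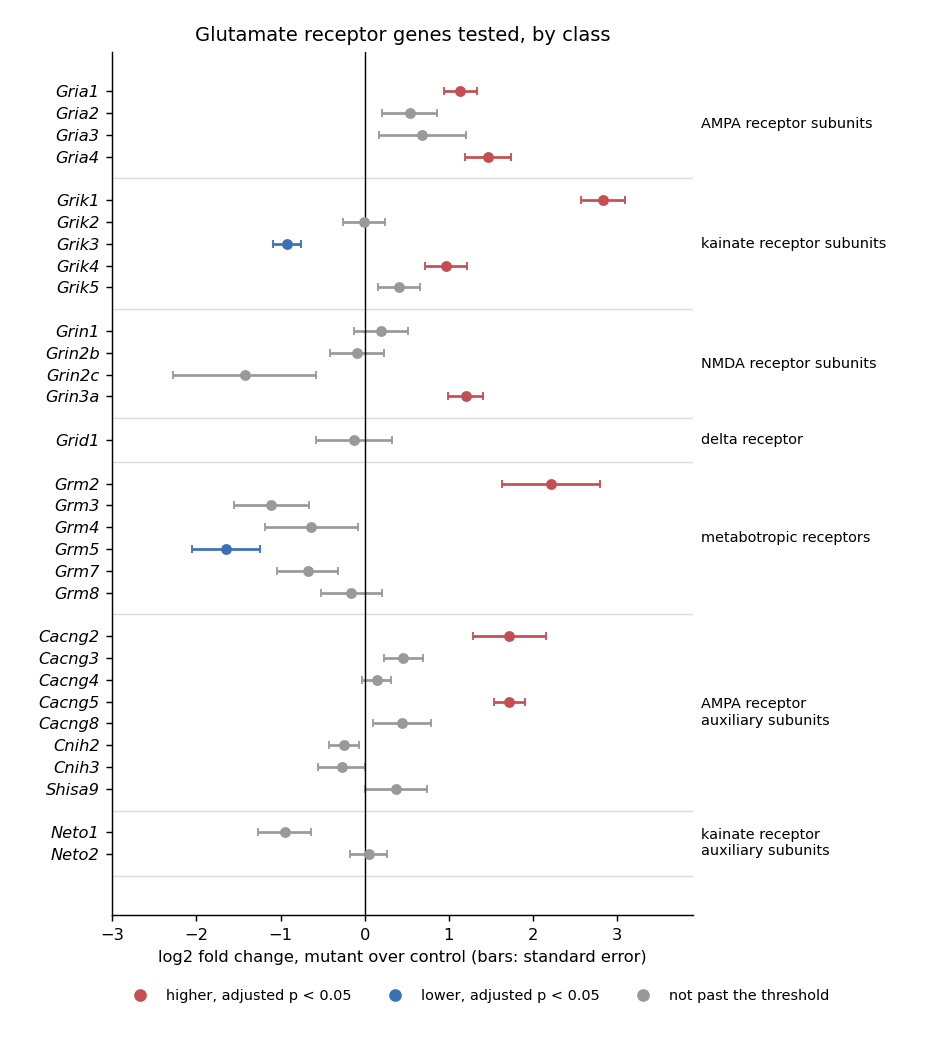
Log2 fold changes of the 30 tested members, mutant over control, on the x axis, grouped by receptor class, with bars of 1 standard error. Red points passed the threshold in the upward direction, blue in the downward direction and grey did not pass. Grik1 lies farthest to the right at 2.83, and Grm5 farthest to the left at -1.65.

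The AMPA receptor subunit genes Gria1 and Gria4 rose in the mutants, by 2.20-fold and 2.76-fold, and Gria2 and Gria3 did not pass the test. Gria1, which encodes GluA1, stood at 113, 178, 185, 91.3, 259 and 164 CPM in controls 1 to 6. The mutants 1 to 5 had 365, 334, 367, 388 and 334 CPM. Every mutant library was above every control, and the mutants varied less among themselves than the controls did. The mean went from 165 ± 59.4 CPM (SD, n = 6) to 357 ± 23.1 CPM (SD, n = 5) (log2 fold change 1.14 with an SE of 0.196, adjusted p = 0.0029; chromosome 11, 57011387 to 57330244, plus strand, GRCm38). Gria4, which encodes GluA4, a subunit of fast AMPA receptors that interneurons use, was at 18.4, 60.1, 43.1, 21.1, 55.7 and 26.98 CPM in the controls and 119, 120.3, 93.6, 81.2 and 95.9 CPM in the mutants. The groups did not overlap (log2 fold change 1.46 with an SE of 0.272, adjusted p = 0.00502; chromosome 9, 4417896 to 4796234, minus strand).

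Gria2 encodes GluA2, the subunit whose edited form blocks calcium entry. Its levels were 78.7, 208, 166, 74.2, 317 and 86.49 CPM in controls and 277, 184, 206, 297 and 147 CPM in mutants. Controls 2 and 3 lay inside the range of the mutants and control 5 above all of them. The difference did not pass (log2 fold change 0.54 with an SE of 0.330, adjusted p = 0.443). Part of the exons of Gria2 also belong to the small RNA gene Gm25749. Gria3, on the X chromosome, ranged over 1.61 to 19.8 CPM in controls and 2.67 to 29.2 CPM in mutants (log2 fold change 0.68 with an SE of 0.518, adjusted p = 0.548). Mutant 5 and control 1 had its lowest levels.

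Divided by exon length, the summed level of the 4 AMPA genes was 44.4 ± 18.7 CPM per kb in controls and 91.4 ± 7.83 in mutants (SD, n = 6 and 5), with no overlap between 73.6 at most in controls and 80.2 at least in mutants. Gria1 held 54.1% to 71.7% of that sum in controls and 60.8% to 68.9% in mutants, so the mutants lay inside the control range. The share of Gria2 was 21.2 ± 4.55% in controls and 15.4 ± 3.19% in mutants, with overlapping ranges, and that of Gria4 was 13.2 ± 2.45% and 17.8 ± 3.26%. These sums and shares are descriptions with no test, and they take the length of all annotated exons of a gene as its length.

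**Figure D2:**
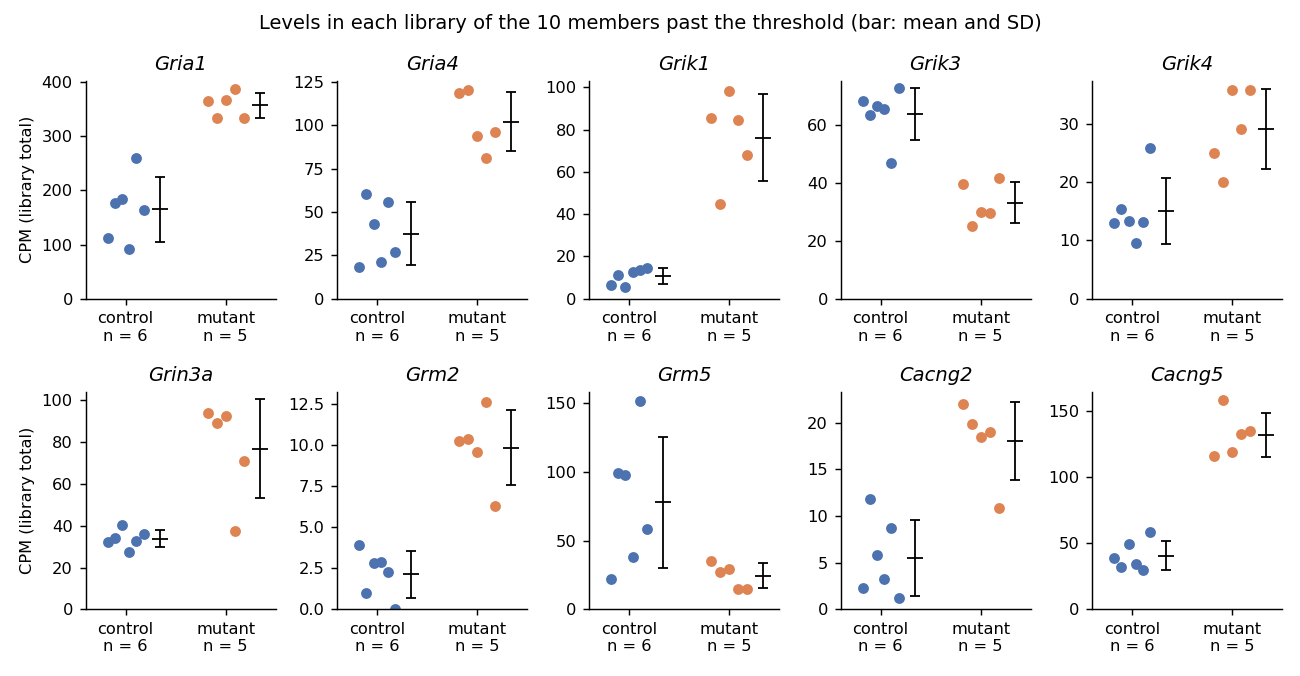
CPM by library total (y axis) of the 10 members past the threshold, with 1 point per library, controls in blue and mutants in orange, and the mean with its SD beside them. The mutants lie wholly above the controls for Gria1, Gria4, Grik1, Grm2 and Cacng5 and wholly below for Grik3, and the groups overlap for Grik4, Grin3a, Grm5 and Cacng2.

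Among the AMPA receptor auxiliary genes Cacng5 and Cacng2 rose, 6 did not pass and Cacng7 was too low to be tested. Cacng5 encodes the TARP gamma-5, an atypical member of its family. Its levels were 39.1, 32.03, 49.3, 34.4, 29.8 and 58.2 CPM in the controls. In the mutants they were 116, 158, 119, 132 and 135 CPM, all above the highest control. The rise was 3.30-fold (log2 fold change 1.72 with an SE of 0.181, adjusted p = 5.28e-05) and held among the libraries without Y-linked counts, at 2.06 (adjusted p = 0.00044). Cacng5 lies on chromosome 11 (107874605 to 107915055, minus strand) beside Cacng4 (107732357 to 107794557, minus strand). Cacng4, the gene of the TARP gamma-4, stood at 22.7 to 42.49 CPM in controls and 29.8 to 38.2 CPM in mutants (log2 fold change 0.14 with an SE of 0.174, adjusted p = 0.742).

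Promoter windows of Cacng5 are shown because it was the auxiliary gene with the smallest adjusted p, and that of Grik3 because it was the lower member whose groups did not overlap. Zeb2 is known to bind E-boxes of the form CACCTG, and capitals mark this motif or its reverse complement CAGGTG, searched on both strands. Each window runs from 250 bases before to 50 after a RefSeq start site (GRCm38.p6), read 5′ to 3′ on the strand of the gene.
Cacng5, chr11:107915006-107915305, minus strand: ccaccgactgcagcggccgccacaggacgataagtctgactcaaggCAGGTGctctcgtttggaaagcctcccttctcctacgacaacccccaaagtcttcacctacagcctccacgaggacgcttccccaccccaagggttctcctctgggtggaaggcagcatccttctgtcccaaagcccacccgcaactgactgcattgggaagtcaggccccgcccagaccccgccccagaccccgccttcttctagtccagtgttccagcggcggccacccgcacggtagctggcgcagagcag
Cacng5, chr11:107911313-107911612, minus strand: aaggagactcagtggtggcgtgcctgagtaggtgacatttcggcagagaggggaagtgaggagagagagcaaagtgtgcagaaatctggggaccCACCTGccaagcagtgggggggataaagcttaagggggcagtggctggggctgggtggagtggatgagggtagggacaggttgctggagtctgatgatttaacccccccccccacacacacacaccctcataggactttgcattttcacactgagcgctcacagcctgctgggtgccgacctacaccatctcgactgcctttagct
Grik3, chr4:125490446-125490745, plus strand: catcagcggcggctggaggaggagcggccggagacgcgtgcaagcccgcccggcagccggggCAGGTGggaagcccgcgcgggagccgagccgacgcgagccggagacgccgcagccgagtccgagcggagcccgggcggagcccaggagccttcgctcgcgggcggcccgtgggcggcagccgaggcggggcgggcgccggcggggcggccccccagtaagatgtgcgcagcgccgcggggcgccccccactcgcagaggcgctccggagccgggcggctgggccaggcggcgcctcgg
In these windows the motif started at -204 and -156 relative to the 2 start sites of Cacng5 and at -188 relative to that of Grik3. RefSeq windows were found for 22 members, with 27 windows in all, and 8 of them held the motif, against 20.2% of all 32851 windows of the same length. Of the other changed members, the windows of Gria4, Grik4, Grm2 and Cacng2 did not hold these letters, and no window was found for Gria1, Grik1, Grin3a and Grm5. A match is a sequence description only.

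Cacng2 encodes stargazin, the founding TARP. It was at 2.34, 11.9, 5.81, 3.22, 8.69 and 1.27 CPM in controls and 21.98, 19.9, 18.52, 18.97 and 10.9 CPM in mutants, and mutant 5, the lowest mutant, lay below control 2. The change was 3.29-fold (log2 fold change 1.72 with an SE of 0.436, adjusted p = 0.0356). The call was lost without control 1, 3 or 4 or mutant 1, 2, 3 or 4 (adjusted p from 0.0666 to 0.0892), while the log2 fold change stayed within 1.51 to 2.09 over the 11 fits without 1 library. Exons of Cacng2 overlap A730060N03Rik in antisense, which makes its counts uncertain.

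The remaining auxiliary genes gave smaller differences. Cacng3 and Cacng8, the genes of the TARPs gamma-3 and gamma-8, had log2 fold changes of 0.46 and 0.44 (adjusted p = 0.334 and 0.566). Cnih2 and Cnih3 encode cornichon proteins, which slow the closing of AMPA receptors, and had -0.25 and -0.27 (adjusted p = 0.539 and 0.689). Exons of Cnih2 overlap Yif1a on the opposite strand. Shisa9, which encodes an auxiliary subunit that speeds desensitisation, was at 4.46 to 16.8 CPM in controls and 6.36 to 18.8 CPM in mutants (log2 fold change 0.38 with an SE of 0.370, adjusted p = 0.671). Cacng7 had 52 counts in all controls together and 47 in all mutants. Per kb, Cacng5 made up 26.4% to 43.47% of the summed TARP level of control libraries and 54.3% to 62.1% of that of mutants, and Cacng4 20.7% to 39.49% and 14.8% to 17.9%. The Cacng5 share was thus above every control in each mutant, and the Cacng4 share below.

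Within the kainate receptor family the genes moved in both directions: Grik1 and Grik4 rose, Grik3 fell, and Grik2 and Grik5 did not pass. Grik1 encodes GluK1, a subunit found in many GABAergic interneurons. It stood at 6.58, 11.4, 5.41, 12.8, 13.8 and 14.4 CPM in the controls. The mutants had 85.6, 44.9, 98.4, 84.4 and 67.97 CPM, and the lowest of them, mutant 2, was still above the highest control. At 7.13-fold this was the largest change of any member tested (log2 fold change 2.83 with an SE of 0.267, adjusted p = 1.95e-05; chromosome 16, 87895900 to 88290265, minus strand). Among the libraries without Y-linked counts the log2 fold change was 2.54 (adjusted p = 0.0018).

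Grik3 encodes GluK3, a subunit with low affinity for glutamate. Controls had 68.04, 63.2, 66.4, 65.46, 46.7 and 72.7 CPM and mutants 39.6, 25.2, 30.1, 29.4 and 41.54 CPM. No library of one group reached the other, with control 5 the lowest control. The level was 1.90-fold lower in the mutants (log2 fold change -0.92 with an SE of 0.170, adjusted p = 0.00474; chromosome 4, 125490700 to 125714173, plus strand). Against the 2 controls without Y-linked counts it was -0.73 (adjusted p = 0.247), not past the threshold.

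Grik4 encodes GluK4, which binds glutamate with high affinity and needs a partner of the GluK1 to GluK3 type. It stood at 13.02, 15.4, 13.3, 9.54, 13.1 and 25.9 CPM in controls and 25.04, 20.1, 35.8, 29.1 and 35.7 CPM in mutants, with control 6 inside the range of the mutants (log2 fold change 0.97 with an SE of 0.253, adjusted p = 0.042). The call held only without control 6 or mutant 2. In the other 9 fits without 1 library adjusted p was 0.064 to 0.116, and over all 11 the log2 fold change was 0.86 to 1.20. Grik2, the gene of GluK2, had 47.7 to 152 CPM in controls and 60.2 to 101 CPM in mutants (log2 fold change -0.01 with an SE of 0.253, adjusted p = 0.99). Grik5, the gene of GluK5, the other high-affinity subunit, was at 7.37 to 10.52 and 7.96 to 16.6 CPM (log2 fold change 0.41 with an SE of 0.247, adjusted p = 0.431).

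The make-up of the kainate family differed between the groups. On the per-kb scale Grik1 held 4.28% to 11.4% of the summed kainate level in controls and 30.7% to 44.2% in mutants. Grik3 held 23.2% to 47.7% in controls and 10.1% to 16.2% in mutants. Neither pair of ranges overlapped. The share of Grik2 was 22.6% to 50.9% and 15.9% to 33.6%, highest in controls 2 and 5. The summed level was 19.7 ± 2.98 CPM per kb (SD, n = 6) in controls and 28.8 ± 4.28 (SD, n = 5) in mutants, with mutant 2 inside the range of the controls.

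**Figure D3:**
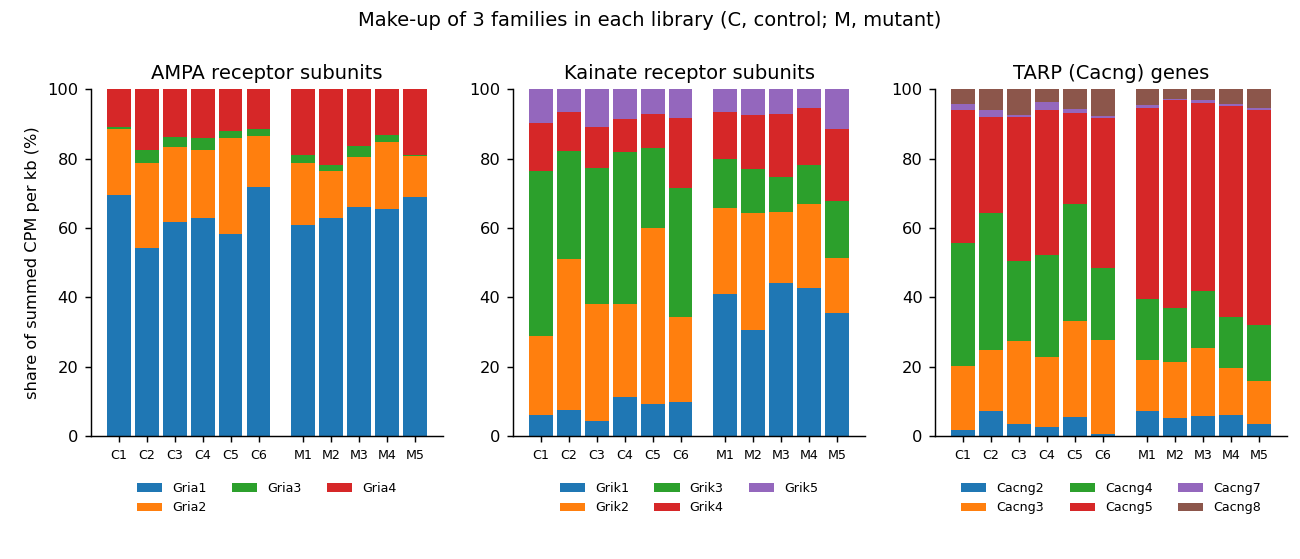
Share of each gene in the summed CPM per kb of its family (y axis, percent) in each library, controls C1 to C6 on the left and mutants M1 to M5 on the right. In every mutant Grik1 takes at least 30.7% of the kainate sum and Cacng5 at least 54.3% of the TARP sum, above all controls, whereas the Gria1 share overlaps.

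The kainate auxiliary genes did not pass the test. Neto1, whose protein binds kainate and NMDA receptors, was at 23.998, 68.2, 49.9, 27.3, 61.2 and 21.6 CPM in controls and 30.6, 18.1, 20.8, 26.2 and 11.6 CPM in mutants. Controls 2, 3 and 5 were above all mutants, and controls 1, 4 and 6 lay among them (log2 fold change -0.95 with an SE of 0.318, adjusted p = 0.117; DESeq2 adjusted p = 0.0338). Neto2 ranged over 35.3 to 85.02 and 50.3 to 83.54 CPM (log2 fold change 0.05 with an SE of 0.220, adjusted p = 0.943).

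Of the NMDA receptor genes Grin3a rose, Grin1, Grin2b and Grin2c did not pass, and Grin2a, Grin2d and Grin3b were too low to be tested. Grin3a encodes GluN3A, a subunit of young neurons that lowers the calcium permeability of NMDA receptors. Levels were 32.3, 34.2, 40.2, 27.7, 32.52 and 36.1 CPM in the controls, a narrow range. The mutants had 93.95, 89.1, 92.4, 37.7 and 71.04 CPM. Mutant 4 was far below the other mutants and lay under control 3, and the other 4 mutants were above all controls. The change was 2.30-fold (log2 fold change 1.20 with an SE of 0.206, adjusted p = 0.00278; chromosome 4, 49661611 to 49845744, minus strand). Among libraries without Y-linked counts it was 1.38 (adjusted p = 0.085).

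Grin1 encodes the subunit that every NMDA receptor needs. Its levels were 9.80, 19.003, 22.7, 14.52, 34.6 and 41.6 CPM in controls and 15.9, 30.7, 31.9, 27.2 and 28.6 CPM in mutants, and the ranges overlapped throughout (log2 fold change 0.20 with an SE of 0.323, adjusted p = 0.817). Grin2b, the gene of the GluN2B subunit that dominates before birth, was at 50.2, 107, 100.5, 37.7, 130.4 and 28.98 CPM in controls and 76.7, 61.4, 83.98, 57.1 and 68.6 CPM in mutants (log2 fold change -0.09 with an SE of 0.320, adjusted p = 0.922). All mutants lay inside the range of the controls, which was wide. Grin2c had 0.830 to 6.56 CPM in controls and 0 to 2.43 CPM in mutants, with no counts in mutants 3 and 4 (log2 fold change -1.43 with an SE of 0.852, adjusted p = 0.424).

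Grin2a encodes GluN2A, which replaces GluN2B in maturing neurons. It had 10 counts in the 6 controls together, with none in 4 of them, and 78 in the 5 mutants. Its CPM was at most 0.664 in a control and 0.979 to 1.74 in mutants, so the groups did not overlap at this low level. In the edgeR fit with no filter its log2 fold change was 3.09 (adjusted p = 0.157). Grin2d had 53 counts in all controls and 14 in all mutants. Grin3b had 14 counts in controls, 11 of them in control 4 and 0 in controls 2, 5 and 6. It had 0 in mutants, which allows up to 3 counts in a mutant library, and its exons overlap Tmem259 on the opposite strand. Per kb, Grin3a was 31.4 ± 6.92% of the summed NMDA level in controls and 50.2 ± 8.19% in mutants, with mutant 4 inside the range of the controls.

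The delta receptor gene Grid1, whose product binds secreted cerebellins, was at 2.34 to 9.08 CPM in controls and 1.26 to 6.86 CPM in mutants (log2 fold change -0.12 with an SE of 0.453, adjusted p = 0.927). Of the metabotropic genes Grm2 rose, Grm5 fell and 4 did not pass, and all but Grm2 had a negative log2 fold change.

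Grm5 encodes mGluR5, a group I receptor that acts through phospholipase C and is abundant in striatal neurons. It stood at 22.4, 99.50, 97.8, 38.4, 152 and 58.6 CPM in the controls. In the mutants it was 35.6, 27.3, 29.52, 15.2 and 14.9 CPM. The other 5 controls were above all mutants, whereas control 1 lay among them. The level was 3.14-fold lower (log2 fold change -1.65 with an SE of 0.403, adjusted p = 0.0302; chromosome 7, 87584168 to 88134907, plus strand). The call was lost without control 2, 3 or 5 or mutant 2, 3, 4 or 5 (adjusted p from 0.0518 to 0.0826; log2 fold change -1.84 to -1.36 over the 11 fits) and without control 6 and mutant 5 together (adjusted p = 0.0628). It was also lost with limma-voom (adjusted p = 0.06), with no filter (edgeR adjusted p = 0.0604) and among libraries without Y-linked counts, where the log2 fold change was -1.92 (adjusted p = 0.0613).

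Grm2 and Grm3 encode the group II receptors, which lower cyclic AMP. Grm2 was at 3.95, 0.996, 2.81, 2.90, 2.26 and 0 CPM in controls and 10.3, 10.4, 9.59, 12.6 and 6.29 CPM in mutants, and each mutant was above each control (log2 fold change 2.22 with an SE of 0.581, adjusted p = 0.0421). With 115 counts in all controls its call held only without control 1, control 6 or mutant 5, and the log2 fold change was 1.94 to 2.48 over the 11 fits (adjusted p from 0.0641 to 0.101 in the 8 others). Grm3 was at 13.9, 80.7, 60.9, 18.47, 109 and 23.6 CPM in controls and 33.04, 23.6, 22.4, 17.52 and 19.4 CPM in mutants, where controls 2, 3 and 5 were above all other libraries (log2 fold change -1.11 with an SE of 0.449, adjusted p = 0.211). The group III genes Grm4, Grm7 and Grm8, whose receptors sit mostly on nerve terminals, had log2 fold changes of -0.64, -0.68 and -0.16 (adjusted p = 0.615, 0.368 and 0.881).

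Marker genes of other cell classes also moved with the comparison. The summed level of 15 genes of striatal projection neurons was 795, 2152, 1761, 1329.8, 2512 and 1227 CPM in controls 1 to 6 and 466 to 703 CPM in the mutants, and 8 of the 15 fell and 1 rose. Among libraries without Y-linked counts 5 fell and 0 rose by edgeR, with 1.46% of all genes called. With the Y-linked level as covariate 5 fell and 0 rose as well, with 1.32% called. The striatal sum was highest in controls 2, 3 and 5. In 12 of the 34 members each of these 3 controls was above the other 3: Gria1, Gria2, Gria3, Gria4, Grik2, Grin2b, Grm3, Grm5, Grm7, Cacng2, Neto1 and Neto2. Of the 12, Gria1, Gria4 and Cacng2 rose in the mutants, whose striatal sums were the lowest, Grm5 fell, and 8 did not pass. These 12 were picked by their order among the controls, and the part of striatal cells in their levels was not tested. How many of all genes show this order was not counted, so the 12 have no background beside them.

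The sum of 13 genes of interneurons of the medial ganglionic eminence (MGE) and cortex was 679.5 to 1061 CPM in controls and 3027 to 4435 CPM in mutants, with 7 rising and 2 falling. Among libraries without Y-linked counts 6 rose and 0 fell by edgeR, with 1.46% of all genes called. With the Y-linked level as covariate 6 rose and 0 fell as well, with 1.32% called. Within the controls the sum of these 13 genes was lowest in control 6, the control in which Grik1 and Cacng5 were highest, at 14.4 and 58.2 CPM. Control 6 also stood apart in the oligodendrocyte precursor list, and nothing is drawn from its place here. Of 8 oligodendrocyte precursor genes 7 had a negative log2 fold change, with a median of -1.02, and 2 of them (Gpr17 and Tnr) fell, beside the lower members Grm5 and Grik3. The count was 3 without control 6 and mutant 5, where 4.44% of all genes were called, and 5 by DESeq2, which called 8.02%. Among libraries without Y-linked counts 0 of the 8 fell by edgeR, with 2 lower at an unadjusted p under 0.05. In these bulk samples fewer cells of a type and less RNA per cell cannot be told apart, and the part of these cell types in the results was not tested.

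**Figure D4:**
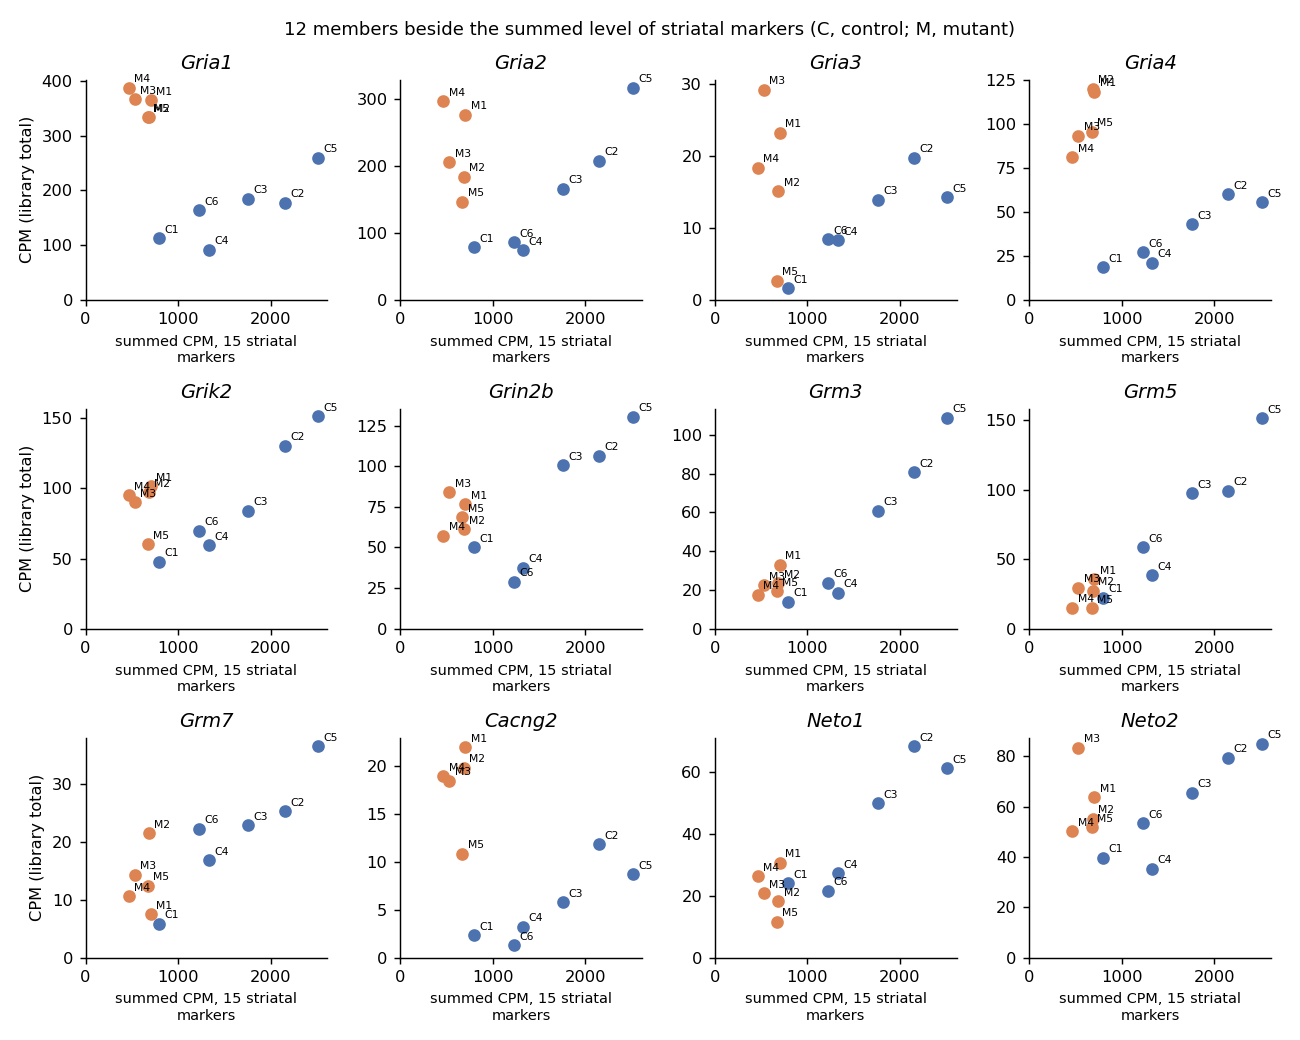
CPM of the 12 members that were higher in controls 2, 3 and 5 than in the other controls (y axes) against the summed CPM of 15 striatal markers (x axis), 1 point per library, controls C1 to C6 in blue and mutants M1 to M5 in orange. The mutants all have sums of 466 to 703 CPM and lie above every control for Gria1 and Gria4, whereas for Grm5 they lie below all controls but control 1.

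On the per-kb scale, which allows a comparison between genes, Cnih2 had the highest level of all members in controls, 47.7 ± 7.50 CPM per kb (SD, n = 6), followed by Gria1 at 27.3 ± 9.83, Grm3 at 16.7 ± 12.7 and Cacng5 at 10.6 ± 2.90. Exons of Cnih2 overlap Yif1a on the opposite strand, which makes its level and its rank in both groups uncertain. The spreads of Gria1 and Grm3 overlap, as do those of Grm3 and Cacng5. In mutants Gria1 was first at 59.1 ± 3.82 CPM per kb (SD, n = 5), then Cnih2 at 39.47 ± 9.95, Cacng5 at 34.4 ± 4.33 and Gria4 at 16.2 ± 2.69. Cnih2 and Cacng5 did not differ there beyond their spread.

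Other genes of the glutamate synapse were read from 6 lists with 104 genes, of which 95 were tested. By the edgeR test 8 were higher, 2 were lower and 85 did not pass, against 4.42% of all genes called, and their median absolute log2 fold change was 0.28. Of the 13 tested genes on the list of other receptors and auxiliary subunits, 0 passed by edgeR or DESeq2, also at an unadjusted p under 0.05. The most abundant were Grina, which encodes a protein once linked to NMDA receptors, and Cnih1, a cornichon gene, with log2 fold changes of 0.23 and 0.03 (adjusted p = 0.349 and 0.931).

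On the list of postsynaptic scaffolds 3 of 26 rose and 0 fell by edgeR. By DESeq2, which called 8.02% of all genes, 4 rose and 0 fell. At an unadjusted p under 0.05, 6 were higher and 1 lower by edgeR. Dlgap1, the gene of a scaffold that binds PSD proteins, rose from 72.4 ± 22.6 CPM (SD, n = 6) to 163 ± 17.6 CPM (SD, n = 5) (log2 fold change 1.19 with an SE of 0.180, adjusted p = 0.00108). Nsf, an ATPase of membrane fusion that also binds GluA2, and Lin7c, a PDZ adaptor gene, had log2 fold changes of 0.63 and 0.78 (adjusted p = 0.00274 and 0.00949).

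Extracellular synaptic organisers had 4 of 17 genes higher and 1 lower. Cbln2 and Cbln4 encode cerebellins, the secreted ligands of delta receptors and neurexins. Cbln2 rose from 5.30 ± 1.17 CPM (SD, n = 6) to 24.46 ± 7.83 CPM (SD, n = 5) (log2 fold change 2.22 with an SE of 0.249, adjusted p = 9.48e-05). Cbln4 had a log2 fold change of 2.02 (adjusted p = 2.91e-05) and no library of one group reached the other for either gene. Olfm3, which encodes an olfactomedin found in AMPA receptor complexes, rose by 2.94 on the log2 scale (adjusted p = 0.00109). Gpc4, a glypican gene named after its values were seen, rose by 0.76 (adjusted p = 0.0399), and Lrrtm3, a leucine-rich repeat organiser gene, fell by 0.92 (adjusted p = 0.0356). The call of Gpc4 was lost in 8 and that of Lrrtm3 in 7 of the 11 fits without 1 library, in which they ranged over 0.63 to 0.85 and -1.04 to -0.75.

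Of 24 receptor signalling enzymes Nos1 rose and Ppp1r1b fell. Nos1 encodes the neuronal nitric oxide synthase, which is tethered to NMDA receptors and marks a class of interneurons, and it went from 19.4 ± 7.17 CPM (SD, n = 6) to 224 ± 48.3 CPM (SD, n = 5) (log2 fold change 3.55 with an SE of 0.223, adjusted p = 2.62e-07). Ppp1r1b, a phosphatase inhibitor gene of striatal neurons that is also on the striatal list, had a log2 fold change of -1.60 (adjusted p = 0.0443), and its call was lost in 8 of the fits without 1 library (-1.89 to -1.25). Of 12 genes of glutamate transport and metabolism 0 passed by edgeR or DESeq2, with 1 higher and 1 lower at an unadjusted p under 0.05. The most abundant, Slc38a2 and Slc1a3, had log2 fold changes of 0.25 and -0.37 (adjusted p = 0.244 and 0.538). Of the 3 RNA editing genes 0 passed by either tool, also unadjusted, with Adar at 0.31 and Adarb2 at 0.17 (adjusted p = 0.331 and 0.53).

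**Figure D5:**
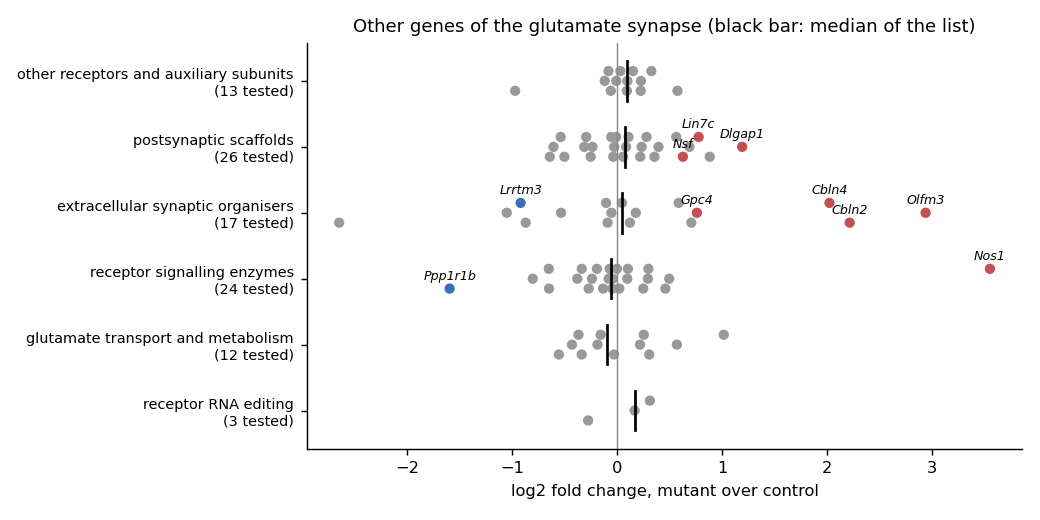
Log2 fold changes, mutant over control (x axis), of the tested genes of 6 other glutamate synapse lists, 1 point per gene, with the median of each list as a black bar. Named points passed the threshold, red upward and blue downward, and the medians of the lists lie between -0.09 and 0.17.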

How the data were processed

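RNA of 6 control and 5 mutant libraries was sequenced. Reads were aligned with TopHat2 2.0.13 to mm10 and counted per gene with featureCounts 1.4.6, per the submitters' processing notes, and the authors deposited 1 table of raw read counts per gene. Whether counting used strand is not given in the sources used here. Symbols and exon-union lengths came from GENCODE M21 (GRCm38), which matched 37607 of 39179 identifiers. Genes passing filterByExpr (14104) were scaled by TMM and tested with edgeR 4.0.16 (robust quasi-likelihood, genotype only, R 4.3.3), with Benjamini-Hochberg adjustment over all of them and a threshold of 0.05. SE is the absolute log2 fold change divided by the square root of F. Per-library levels are CPM by library total. DESeq2 1.42.0 and limma-voom 3.58.1 were alternatives. On simulated counts with 200 changed genes, the fit recovered 54.7% of 2-fold and 84.4% of 4-fold changes, with 6 false calls. A gene that did not pass may therefore still differ. Other alternatives were other scalings and filters, each library left out, a replicate block and the Y-linked level as covariate. Members and lists were chosen with earlier results of these data known. Text names all members, list genes past the threshold with the smallest adjusted p, and otherwise the most abundant. A gene of the related lists is not reported here.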

Additional observations from a re-analysis of the deposited data

Results flagged for a closer look

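Of 60 groups of libraries examined over the tested members, 4 held a library far from the others by Dixon's criterion, and chance flags about 1 group in 20. Grik2 was low in mutant 5, at 60.2 CPM. Grik3 was low in control 5, at 46.7 CPM, the control nearest to the mutants. Grik4 was high in control 6, at 25.9 CPM, inside the range of the mutants. Grm8, the gene of a group III metabotropic receptor, stood apart in mutant 1 at 7.77 CPM.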

How the results depend on the processing

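Over all genes 623 were called, against 1109 with DESeq2, 976 at a threshold of 0.1, 186 with the Y-linked level as covariate, 218 among libraries without Y-linked counts, and 418 to 656 with 1 library left out. The 8 higher members became 3 with the covariate, 3 without Y-linked libraries and 5 to 8 with 1 library left out (5 without control 3 or 4 or mutant 1, 3 or 4). The 2 lower members became 1 with no filter, 1 with limma-voom, 1 without control 6 and mutant 5 (chosen after seeing the data), 1 to 2 with 1 library left out, 0 with the covariate and 0 without Y-linked libraries. Of the related genes 10 changed, against 5 with the covariate and 5 without Y-linked libraries. Gria1, Gria4, Grik1, Grik3, Grin3a and Cacng5 passed in all 11 fits without 1 library. Directions turned only in genes that did not pass. The log2 fold change of Grik2 was 0.0044 with no filter, 0.0582 with limma-voom, 0.0338 without control 6 and mutant 5, and -0.13 to 0.20 with 1 library left out. Grin2b had 0.0779 with limma-voom and -0.26 to 0.13. Grid1 had 0.26 with the covariate, 0.35 without Y-linked libraries, 0.42 without control 6 and mutant 5, and -0.37 to 0.19. Grm8 had 0.38, 0.35 and -0.41 to 0.0056, Neto2 -0.091 to 0.17, and the related gene Cnih1 -0.0083 to 0.0976. The cause was not tested. A block on the replicate number called 421 genes, 7 higher and 1 lower members, with Grik2 at 0.0425 and Grid1 at 0.0743. Same-numbered libraries did not deviate together (correlations -0.14 to 0.02). This gave no sign that the numbers pair samples but cannot exclude it, as the labels do not say how the numbers were given. Grin2a, Grin2d, Grin3b and Cacng7 had too few counts to be tested at this depth.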

Other observations

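Several low genes of glutamate handling, named after their values were seen, fell under the filter on low counts and were not tested. Slc17a8, which encodes the vesicular glutamate transporter VGLUT3, had 3 counts in the 6 controls together and 39, 1, 17, 9 and 24 counts in mutants 1 to 5, so mutant 2 lay with the controls. Folh1, which encodes a carboxypeptidase that releases glutamate from a neuropeptide, had 6, 22, 9, 4, 5 and 2 counts in controls 1 to 6 and 0 in each mutant, which allows up to 3 counts in a mutant library.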
